A study of Mus musculus with 31 samples.

Results

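Loss of CIS was examined in natural killer (NK) cells labelled unstimulated. The comparison set 4 CIS KO libraries against 4 wild-type (WT) libraries, out of 31 libraries in the series. It covers the autosomal genes that passed a filter on low counts, 9752 of the 10275 genes tested. NK cells are innate lymphocytes that kill infected and transformed cells and release cytokines. The series crosses WT, CIS KO and TGFBRII KO cells with 3 conditions, which are no stimulation, 4 h of TGFB1 and 24 h of TGFB1. The 3 unstimulated TGFBRII KO libraries and the CIS KO and WT libraries at 4 h (4 and 2) and 24 h (4 and 4) serve below as points of reference. Mouse strain, age and sex, the organ, the sort gate, the alleles and, for TGFBRII KO, any Cre driver are not stated by the sources at hand, nor whether a library came from 1 animal or a pool.

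CIS, encoded by Cish, belongs to the suppressor of cytokine signalling (SOCS) family. Interleukin 2 and interleukin 15 act on NK cells through a receptor that activates the kinases JAK1 and JAK3 and then the transcription factor STAT5. STAT5 induces Cish, and the CIS protein binds the activated receptor complex and recruits a ubiquitin ligase, which damps the signal. NK cells without CIS are known for stronger responses to interleukin 15.

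The 2 sides differed in library depth before any gene was considered. Total counts were 392266, 548414, 527583 and 711659 in CIS KO replicates 1 to 4, and 779173, 790989, 1135104 and 712432 in WT replicates 1 to 4. The groups did not overlap (exact two-sided permutation test, p = 0.0286, the smallest that 4 against 4 allows). The TGFBRII KO libraries lay at 777648 to 816633, and at 24 h the depths of CIS KO (590009 to 1403005) and WT (673239 to 898365) overlapped. CIS KO libraries also held fewer detected genes (12400 ± 423 against 13100 ± 378; SD, n = 4 each; exact two-sided permutation test, p = 0.0286). They also gave a larger share of their counts to the most abundant genes (23.9% ± 1.93 against 20.3% ± 1.35; same exact test, p = 0.0286). Sex-linked transcripts differed too. Xist, made from an inactive X chromosome, lay at 91.1 to 144 CPM (counts scaled to library totals) in the WT libraries and was 0 in all 4 CIS KO libraries. Summed Y-linked transcripts were 1.38 to 91.1 CPM in WT and 419 to 473 CPM in CIS KO, so genotype and the sex of the cells cannot be told apart. The same holds at 4 h and 24 h of TGFB1. Every CIS KO library there had less Xist and a higher Y-linked sum than every WT library of the same time. The counts of CIS KO replicates 2 and 3 differed by less than sampling noise (chi-square per degree of freedom 0.872), as did those of WT replicates 2 and 4 (0.908), which had unlike Y-linked sums of 91.1 and 1.38 CPM. All were kept as separate libraries, and the count of calls with the CIS KO pair as 1 library is given below. Where no source says that libraries came from separate animals, p-values measure the spread between these libraries, which may be partly technical.

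The cells carried the NK programme in both genotypes. All 12 NK markers were detected in each library, though Itga2 had 1 to 15 counts. Among them were Ncr1 (86 to 145 counts in CIS KO, 185 to 258 in WT) and Klrb1c, which encodes NK1.1 (353 to 501 and 589 to 866). Of the 11 tested, 2 rose, Gzmb and Prf1, beside 3.01% of all autosomal genes. Their median of 0.51 over the 11 was 0.04 with library depth in the fit. Of the markers of other lineages, Cd4, Cd8a, Ms4a1, Lyz2, Adgre1, S100a8 and Hbb-bs had 0 counts in all 8 libraries. Others were detected in each, such as Cd3g (45 to 90 counts in CIS KO and 98 to 133 in WT), Cd3d (46 to 67 and 74 to 135), Lat (26 to 60 and 74 to 124) and H2-Ab1 (27 to 37 and 46 to 117). The 16 T cell markers summed to 910 to 987 CPM in CIS KO and 899 to 1020 CPM in WT, carried by genes that NK cells also express, such as Cd28 and the Trbc genes. The 18 myeloid markers summed to 907 to 1030 and 880 to 1040 CPM, mostly Ccr2 and Itgax, and the 13 B cell markers to 9.28 to 15.3 and 16.5 to 34.4 CPM. The 12 stroma and epithelium markers summed to 728 to 903 CPM in CIS KO and 608 to 699 CPM in WT, mostly Vim, Pecam1 and Epcam. The 11 markers of other innate lymphoid cells summed to 387 to 470 and 329 to 423 CPM, mostly Klrg1 and Gata3. In bulk RNA, fewer cells of a type and less RNA per cell cannot be told apart. The part of these markers in the results below was not tested.

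Cish itself checked the labels. The gene (Entrez 12700) lies on chromosome 9 at 107296659 to 107302784 of mm10. Its raw counts were 10, 18, 11 and 13 in CIS KO replicates 1 to 4, 138, 121, 155 and 126 in WT, and 98, 106 and 107 in TGFBRII KO. All CIS KO libraries lay far below all others. The counts are of the whole gene, so deleted and remaining exons are not separated. Cish stood at 25.2 ± 6.77 CPM in CIS KO and 157.6 ± 21.6 CPM in WT (SD, n = 4 each), a log2 difference of -2.66 ± 0.17 (standard error; edgeR's quasi-likelihood test, adjusted by Benjamini-Hochberg across the 10275 genes, as for every adjusted p below; adjusted p = 7.09e-13). With the depth of each library as a term in the fit the difference was -2.86 ± 0.16, and it was -2.44 at 4 h and -2.07 at 24 h of TGFB1.

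The start of Cish holds 2 copies of TTCNNNGAA, the motif bound by STAT5, which is why its promoter is shown. The letters below run from 250 bases before to 50 bases from the RefSeq start of the gene (RefSeq annotation, GRCm38.p6), 5′ to 3′ on the strand of the gene, with the motif copies in capitals. Irf8, a transcription factor of NK maturation that was called higher in CIS KO, is shown beside it because it was the other described gene whose window held 2 copies. Cish is on the plus strand at chr9:107296409-107296708 and Irf8 on the plus strand at chr8:120736108-120736407.
Cish: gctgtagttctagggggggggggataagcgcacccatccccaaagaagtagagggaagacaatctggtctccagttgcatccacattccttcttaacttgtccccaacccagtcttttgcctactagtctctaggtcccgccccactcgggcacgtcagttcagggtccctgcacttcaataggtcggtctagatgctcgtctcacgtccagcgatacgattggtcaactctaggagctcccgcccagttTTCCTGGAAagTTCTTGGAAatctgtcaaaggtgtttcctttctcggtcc
Irf8: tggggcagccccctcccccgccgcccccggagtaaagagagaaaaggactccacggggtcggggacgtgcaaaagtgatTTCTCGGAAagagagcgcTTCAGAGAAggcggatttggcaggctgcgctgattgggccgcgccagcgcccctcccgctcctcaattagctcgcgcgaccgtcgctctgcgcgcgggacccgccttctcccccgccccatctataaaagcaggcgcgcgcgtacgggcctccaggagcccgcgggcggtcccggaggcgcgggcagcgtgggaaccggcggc

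In the Cish window the first copy begins at the first base of the annotated gene and the second follows it closely, while both Irf8 copies lie before its start. The motif reads the same on both strands. It occurred in 8.3% of 32851 promoter windows of that length, and 0.457% held at least 2 copies. Among genes called higher in CIS KO, 20 of the 230 with a window held it (8.7%), and among those called lower 13 of 225 (5.78%), beside 8.24% of the autosomal genes tested. These shares were not tested, and a match is a run of letters, not a shown binding site.

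The region around Cish held some of the largest differences in the data. Rpl29, a protein of the large ribosomal subunit (chromosome 9, 106428889 to 106431568, 0.865 Mb before Cish), had raw counts of 1, 4, 3 and 0 in CIS KO and 63, 61, 70 and 61 in WT. It was therefore nearly absent from every CIS KO library, at 4.02 ± 3.31 CPM against 74.8 ± 11.2 CPM, a log2 difference of -4.23 ± 0.41 (adjusted p = 2.15e-08). Leaving out any 1 of the 8 libraries gave -4.74 to -3.66. Rpl29 lay at 73.5 to 79.5 CPM in TGFBRII KO, and its difference from WT was -4.52 at 4 h and -3.94 at 24 h. Ribosomal protein genes have near-identical processed copies, so reads of Rpl29 may have been shared among them in a way that cannot be traced. The unnamed model 6430571L13Rik, 0.0379 Mb past Cish, was at 0, 0, 1.96 and 0 CPM in CIS KO and at 6.24 to 16.8 CPM in WT (log2 -4.14 ± 0.81, adjusted p = 0.00439), and at -3.51 at 24 h.

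Closest to Cish, Mapkapk3, a kinase activated by p38, fell from 123 to 158 CPM in WT to 92.3 to 110 CPM in CIS KO, with no overlap (log2 -0.50 ± 0.13, adjusted p = 0.0215). Its difference was -0.69 ± 0.11 with the depth term, -0.88 at 4 h and -0.73 at 24 h, called in each, whereas the call in unstimulated cells was lost without CIS KO replicate 2 or 3 (adjusted p up to 0.115). Cyb561d2, a cytochrome of electron transfer across membranes that was chosen after its values were seen, fell by 0.61 ± 0.14 on the log2 scale. Manf, a secreted endoplasmic reticulum stress protein, rose by 0.66 ± 0.17. Neither was called with the depth term or at 24 h, where they stood at 0.07 and 0.12. Hemk1, Tmem115 and Rbm15b, other near neighbours, did not pass the test. Acpp, a phosphatase that can make adenosine from AMP (2.96 Mb before Cish), was at 110, 124, 135 and 172 CPM in CIS KO and 86.4, 67.4, 83.8 and 53.9 CPM in WT. Each CIS KO library exceeded each WT library, and the log2 difference of 0.91 ± 0.18 (adjusted p = 0.00584) was 1.06 with the depth term, 2.05 at 4 h and 1.69 at 24 h.

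**Figure D1:**
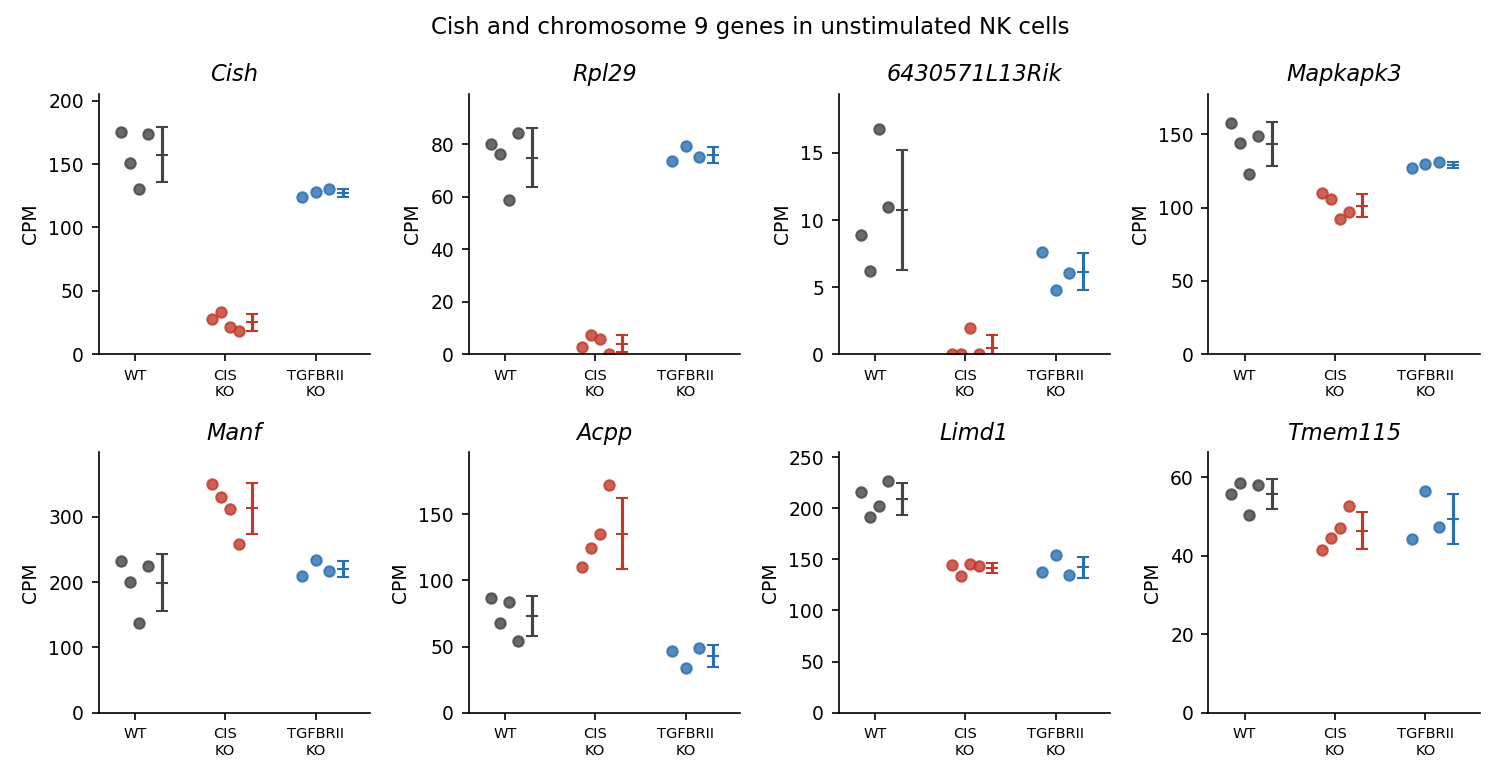
CPM of Cish and 7 other genes of chromosome 9 in single unstimulated libraries (points) of WT, CIS KO and TGFBRII KO, with the mean ± SD of each group beside them. Rpl29 and 6430571L13Rik lie near 0 in CIS KO and Cish at 25.2 ± 6.77 CPM, each below the other genotypes, and Limd1 lies lower in both knockouts than in WT.

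Limd1, an adaptor of cell adhesion and RNA silencing farther along chromosome 9 (123478661 to 123521552), was at 144, 134, 145 and 143 CPM in CIS KO and 191 to 227 CPM in WT. The log2 difference was -0.56 ± 0.09 (adjusted p = 0.00073), -0.66 with the depth term and -0.50 at 24 h. The TGFBRII KO libraries stood as low, at 138, 154 and 135 CPM, and TGFBRII KO differed from the same WT libraries by -0.55 ± 0.09 (adjusted p = 0.00226). Limd1 lies more than 10 Mb from Cish and was chosen after its values were seen. Of 36 genes tested within 1 Mb, Cish left out, 5 were called (13.9%), of 100 within 5 Mb 10 (10%), and of 438 on the rest of chromosome 9 24 (5.48%), beside 6% of 9182 genes on the other autosomes. At 24 h the shares were 13.9%, 8%, 3.88% and 3.18%. These shares were not tested against each other.

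**Figure D2:**
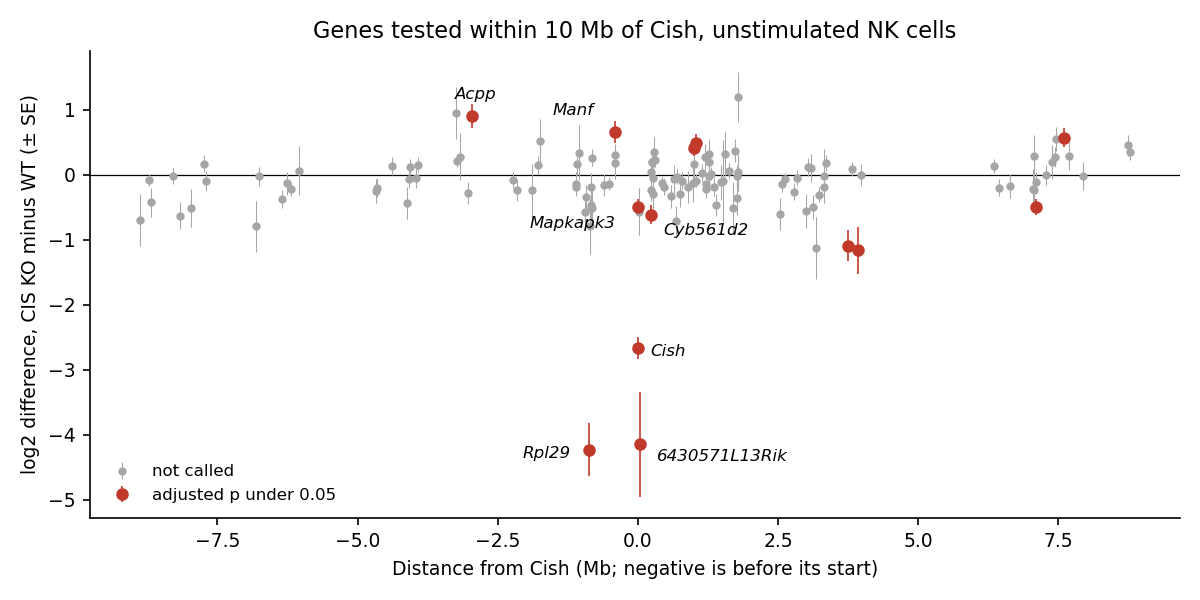
Log2 difference between CIS KO and WT (± standard error) of the tested genes within 10 Mb of Cish, against distance in Mb. Distance is from the start of Cish for genes before it and from its end for genes past it. Cish, Rpl29 and 6430571L13Rik form the 3 lowest points, at -2.66, -4.23 and -4.14, while most neighbours lie near 0.

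Across the autosomes, 294 genes were called higher in CIS KO and 294 lower at an adjusted p under 0.05, each 3.01% of those tested (6.03% together), with a median log2 difference of -0.04. The split rests on the scaling and the tool. It was 248 higher and 503 lower with library size alone, 682 and 362 when the 8 libraries were fitted on their own, 166 and 86 with all libraries thinned to the shallowest, and 318 and 60 with DESeq2. Higher genes thus made up 50% of the calls here, and 33%, 65.3%, 65.9% and 84.1% in these alternatives. DESeq2 gave no adjusted p to 303 of the 588 called genes, 80 higher and 223 lower, Rpl29 among them (log2 -4.28), so its split covers the genes it adjusted. With its independent filtering switched off, an alternative added after seeing the data, every one of the 588 had an adjusted p, and it called 150 higher and 104 lower (59.1% higher), with 254 of the 588 calls kept. The libraries did not overlap for 1558 genes (16%), 778 higher (7.98%) and 780 lower (8%). Calls tilted with abundance. Among the 827 genes with the most counts per base of exon (at least 0.05), 121 were higher and 4 lower, with a median of 0.28, whereas among the 4586 genes under 0.01 counts per base 28 were higher and 164 lower, with a median of -0.19. At 24 h, where depths overlapped, these medians were 0.05 and 0.00.

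Since totals did not overlap, depth and genotype cannot be told apart in unstimulated cells, and depth therefore stands beside each group of genes below. With depth as a term in the fit, 19 genes were higher (0.195%) and 45 lower (0.461%), 0.656% together, and 17 higher (0.174%) and 38 lower (0.39%) were called both with and without it. The medians of the same 2 abundance classes were then 0.03 and -0.03. Single libraries weighed heavily as well. Without WT replicate 3, the deepest library, 15 genes were higher and 32 lower, without CIS KO replicate 3 31 and 40, without CIS KO replicate 1 32 and 69, and with CIS KO replicates 2 and 3 counted as 1 library 40 and 45. Without WT replicate 2 the counts were 129 and 190, without CIS KO replicate 2 109 and 84, without WT replicate 4 187 and 209, without CIS KO replicate 4 591 and 453, and without WT replicate 1 477 and 432. Setting CIS KO replicate 4 alone against the 3 WT libraries of near-equal depth, an alternative chosen after seeing the data, left Cish and Rpl29, with the lone library assumed to vary like those of the other groups.

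**Figure D3:**
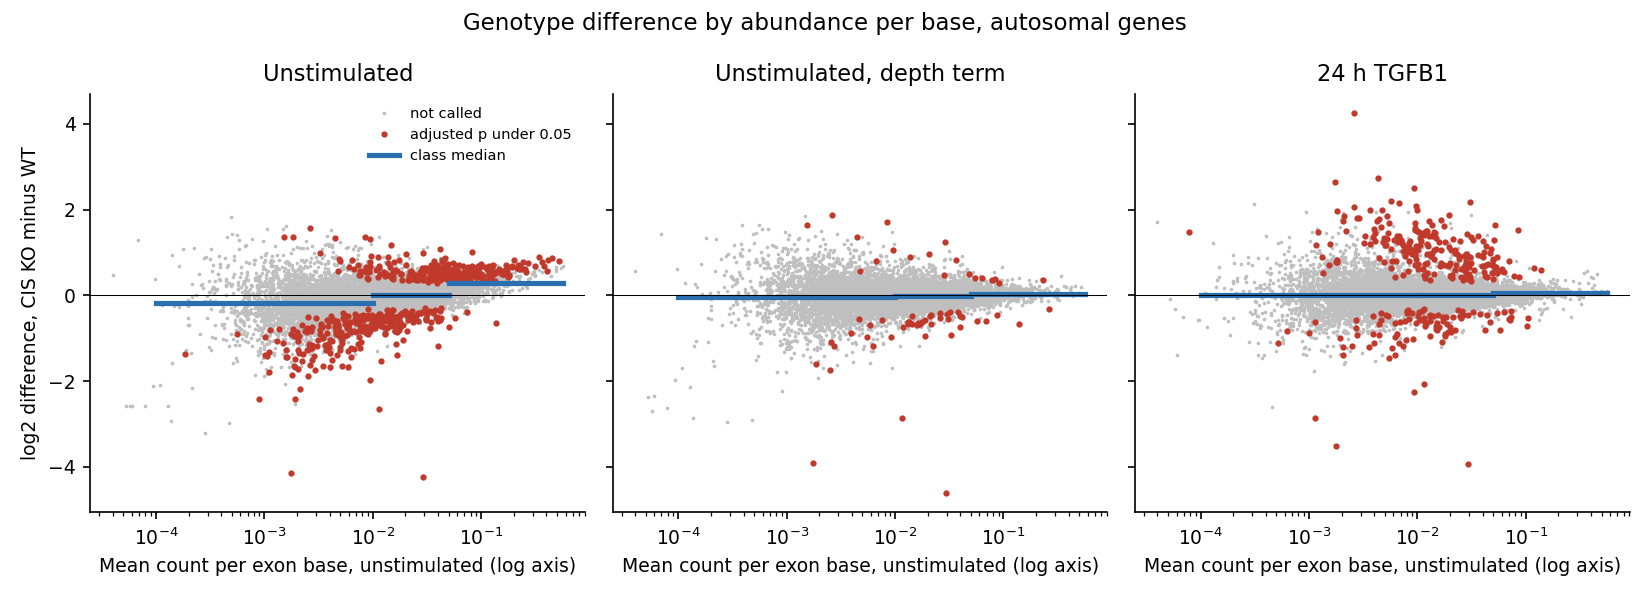
Log2 difference between CIS KO and WT of each autosomal gene against its mean count per exon base (log axis), in unstimulated cells, in unstimulated cells with the depth term, and at 24 h of TGFB1. Red points are called genes and blue bars the medians of the 3 abundance classes, which rise from -0.19 to 0.28 in the first panel and lie near 0 in the others.

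A small core of genes held when any 1 library was left out, and most of it with the depth term. Not all of it held under every setting above. 36 genes were called in the same direction whichever of the 8 libraries was left out (0.369%), and 28 of them also with the depth term (0.287%), 8 higher (0.082%) and 20 lower (0.205%). This core was drawn after the values were seen and is described without a further test. Every other gene named as called lost its call when at least 1 of the 8 libraries was left out. The 8 higher genes were Acpp, Acvrl1, Ccng1, Cd55, Cdkn1a, Hmgcs1, Nabp1 and Rps27l. The 20 lower ones were Cish, Rpl29, 6430571L13Rik, Limd1, Ctss, Ifi203, Klrb1f, Nr3c1, Rcn1, Sla, St3gal1, Stk10, Tent5a, Ust, Afdn, AI504432, Btbd11, Fam189b, Pkp4 and Zfp316. With Y-linked transcripts as a term in the fit, Cish and Rpl29 alone were called in the whole comparison.

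Among the higher core genes, Cdkn1a, Ccng1 and Rps27l act in growth arrest and the response to p53. Cdkn1a, which encodes the cyclin-dependent kinase inhibitor p21, was at 342, 328, 332 and 280 CPM in CIS KO and 208, 225, 183 and 193 CPM in WT. The groups were well apart, with a log2 difference of 0.66 ± 0.11 (adjusted p = 0.00114), 0.50 ± 0.10 with the depth term and 0.52 ± 0.11 at 24 h, called in each. Cyclin G1 (Ccng1), a p53 target that binds the phosphatase PP2A, was at 444 to 490 CPM in CIS KO and 333 to 363 CPM in WT (log2 0.42 ± 0.08, adjusted p = 0.00518), and its difference was 0.36 with the depth term and 0.45 at 24 h. Rps27l, a p53-inducible relative of a ribosomal protein, was at 309 to 389 against 205 to 233 CPM (log2 0.64 ± 0.13), and was not called at 24 h (0.35 ± 0.13). Of 15 p53 targets tested, 3 rose and 0 fell, beside 3.01% of all autosomal genes called in each direction. Their median was 0.14 (0.13 with the depth term, and 0.18 with 4 higher at 24 h). The 3 were Cdkn1a, Ccng1 and Mdm2, of which 2 were called with the depth term, and Rps27l was not on the list. Mdm2, the ubiquitin ligase that restrains p53, was at 0.37 ± 0.10. It was not called with the depth term (0.25), at 24 h (0.02) or without WT replicate 3 or CIS KO replicate 1, 2 or 3.

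Other higher core genes included Cd55 and Acvrl1, which act at the cell surface, and Nabp1. Cd55, the decay-accelerating factor that shields cells from complement, was at 323, 317, 424 and 311 CPM in CIS KO and 239, 199, 174 and 181 CPM in WT. No CIS KO library came down to the WT range, and the log2 difference of 0.80 ± 0.14 (adjusted p = 0.00149) was 0.83 with the depth term and 0.94 ± 0.16 at 24 h. Acvrl1, which encodes ALK1, a type I receptor of the TGF-β family, was at 30.4, 29.7, 25.5 and 23.6 CPM in CIS KO and 5.08, 8.74, 15.1 and 4.14 CPM in WT (log2 1.58 ± 0.36, adjusted p = 0.0118). At 24 h it lay at 4.68 to 14.2 CPM in CIS KO, while 3 of the 4 WT libraries held 0, and it was called with the depth term and at both later times. Nabp1, a single-stranded DNA-binding protein of DNA repair, was at 388 to 458 against 257 to 318 CPM (log2 0.53 ± 0.10), with 0.47 under the depth term and 0.43 at 24 h, called in each.

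Lower core genes included a signalling adaptor, a kinase and glycan enzymes. Sla, the Src-like adaptor that lowers antigen receptor levels in T and B cells, was at 49.7, 61.2, 43.2 and 55.5 CPM in CIS KO and 83.9, 96.1, 93.9 and 85.6 CPM in WT (log2 -0.77 ± 0.14, adjusted p = 0.00174). It lay lower in every CIS KO library, and its difference was -0.69 with the depth term and -1.22 ± 0.17 at 24 h. Stk10, a kinase that phosphorylates ERM proteins of the lymphocyte cortex, was at 49.7 to 72.1 against 105 to 126 CPM (log2 -0.88 ± 0.15), and was called with the depth term, at 4 h and at 24 h. Ust, a sulfotransferase that modifies chondroitin and dermatan sulfate, was at 24.9, 20.4, 17.7 and 26.4 CPM in CIS KO and 58.5, 46.2, 52 and 53.9 CPM in WT. Its log2 difference of -1.22 ± 0.18 (adjusted p = 0.000119) was -1.18 with the depth term, and -0.65 ± 0.17 at 24 h did not pass (adjusted p = 0.0604). St3gal1, a sialyltransferase that caps O-glycans, was at 2.76, 16.7, 11.8 and 4.16 CPM in CIS KO and 26.2 to 40.2 CPM in WT (log2 -1.87 ± 0.37, adjusted p = 0.00487), with -1.19 ± 0.29 at 24 h, called.

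Further lower core genes were those of the glucocorticoid receptor (Nr3c1), a noncanonical poly(A) polymerase (Tent5a), a calcium-binding protein of the endoplasmic reticulum (Rcn1) and cathepsin S (Ctss). Nr3c1 was at 177, 180, 161 and 187 CPM in CIS KO and 264, 246, 275 and 275 CPM in WT, and at 282 to 339 CPM in TGFBRII KO. The log2 difference from WT was -0.58 ± 0.11 (adjusted p = 0.00174) and -0.45 with the depth term. At 24 h it was -0.13 ± 0.10 and did not pass. Tent5a was at 234 to 282 against 370 to 395 CPM, and Rcn1 at 130 to 146 against 198 to 213 CPM, with differences of -0.58 ± 0.10 and -0.60 ± 0.10 that were -0.15 and -0.17 at 24 h, not called. Ctss was at 19.3 to 26 against 36.2 to 49.5 CPM and remained lower at 24 h (-1.04 ± 0.22 and -0.86 ± 0.18, both called).

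**Figure D4:**
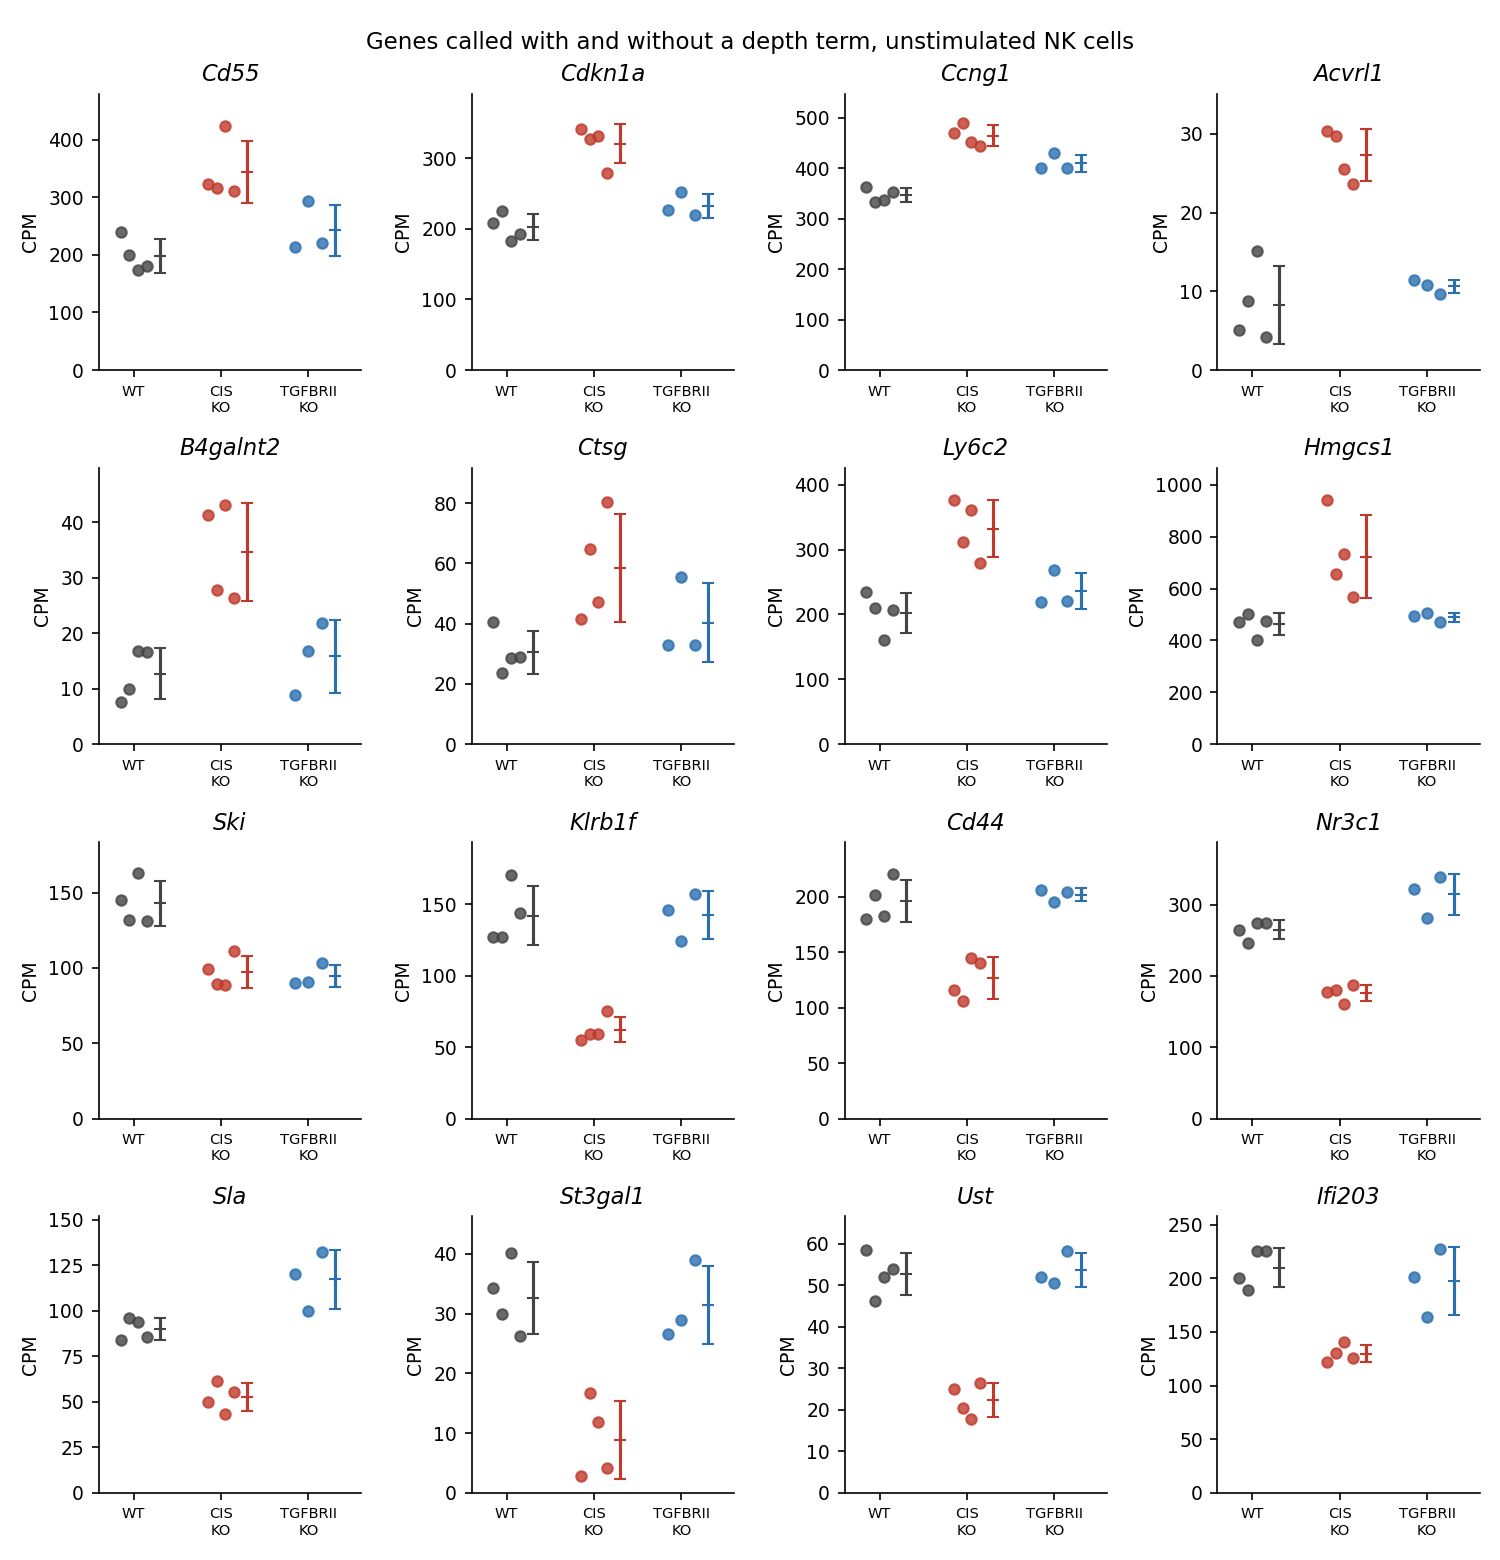
CPM in single unstimulated libraries (points, with mean ± SD per group) of 16 genes called both with and without the depth term, 8 higher and 8 lower in CIS KO. The CIS KO and WT points do not overlap in any panel, and for Ski the TGFBRII KO libraries lie with CIS KO, at 89.9 to 103 CPM.

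Among the other SOCS genes, Socs2, a regulator of growth hormone signalling that STAT5 also induces, was at 82.9, 134, 110 and 123 CPM in CIS KO and 135, 160, 183 and 169 CPM in WT. It was called lower at -0.50 ± 0.15 (adjusted p = 0.0398), but not with the depth term (-0.31) or at 24 h (-0.20), and not without 6 of the 8 libraries in turn (the exceptions being CIS KO replicate 4 and WT replicate 1). Socs1, an inhibitor of JAK kinases, was at 96.5 to 108 CPM in every CIS KO library and 42.8 to 89 CPM in WT, a difference of 0.64 ± 0.22 that missed the threshold (adjusted p = 0.0624). Socs6 stood at 0.50 ± 0.16 (adjusted p = 0.0538), and Socs4, Socs5 and Socs7 at -0.38 ± 0.27, 0.05 ± 0.25 and 0.09 ± 0.10. None of the 9 ubiquitin ligase partners of the SOCS box tested was called, at a median of 0.07.

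The receptor chains, JAKs and STATs of the interleukin 2 and 15 pathway held 20 genes tested. Of these 0 rose and 2 fell, with a median of -0.05, beside 3.01% of all autosomal genes called in each direction. The lower ones were Stat4, the STAT of interleukin 12 (82.5 to 100 against 119 to 133 CPM, log2 -0.43 ± 0.11), and Stat2, the STAT of type I interferon (11.1 to 22.1 against 30.5 to 50.3 CPM, log2 -1.14 ± 0.34). Neither was called with the depth term, at 24 h or without WT replicate 3. Of 18 genes listed as the interleukin 15 and STAT5 response, 5 rose and 1 fell, beside the same 3.01%. Their median was 0.26 (0.08 with the depth term and 0.06 at 24 h). Of the 18, 7 lay in the most abundant class, of which 15.1% of genes were called, at a median of 0.28. The 5 that rose were Cdkn1a, Gzmb, Prf1, Tnfrsf9 and Osm, and the fall was in Ccnd3, cyclin D3 (-0.84 ± 0.24). Osm, the cytokine oncostatin M and a STAT5 target, was at 96.7, 68.6, 68.7 and 69.4 CPM in CIS KO and 57.2, 40, 15.1 and 24.9 CPM in WT (log2 1.17 ± 0.33, adjusted p = 0.0333). TGFBRII KO libraries were at 46.2 to 75.9 CPM, and Osm was not called with the depth term (0.92 ± 0.35) or at 24 h (0.69 ± 0.34). Cdkn1a alone of this list was called with the depth term.

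Of 24 genes of the cytotoxic machinery, 6 rose and 1 fell, with a median of 0.36, and 16 of the 24 lay in the most abundant class, of which 15.1% of genes were called. The rising genes were the granzymes Gzmb, Gzmd, Gzme, Gzmf and Gzmg and the pore-forming protein perforin (Prf1). Gzmb, the main caspase-cleaving granzyme, was at 1330, 1020, 1070 and 764 CPM in CIS KO and 757, 667, 477 and 691 CPM in WT. The groups did not overlap, though CIS KO replicate 4, the deepest of its group, came near WT replicate 1, and the log2 difference was 0.69 ± 0.18 (adjusted p = 0.0256). Its raw counts were 482, 551, 545 and 551 in CIS KO and 596, 534, 569 and 500 in WT, and those of Gzmd 393, 421, 438 and 403, and 402, 390, 399 and 377. The raw counts lay in nearly the same range in both genotypes, while library totals did not overlap.

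With the depth term the difference of Gzmb was 0.20 ± 0.07 and that of Gzmd went from 0.82 to 0.20, neither called. No gene of the list was then called higher, and 1 was called lower. Prf1 was at 0.51 ± 0.15 and at 0.35 with the depth term, and Gzmf at 0.90 ± 0.20 and 0.44. At 24 h 0 of the 24 were called in either direction, at a median of 0.06. Gzmn, a granzyme known from mouse testis, was at 213, 169, 189 and 128 CPM in CIS KO and 71.3 to 101 CPM in WT (log2 1.00 ± 0.22, adjusted p = 0.0102), at 0.54 ± 0.19 with the depth term and 0.81 ± 0.29 at 24 h, not called in either. The granzymes d, e, f, g and n are close paralogs in 1 cluster, so their counts may share reads. Ctsg, cathepsin G of the same gene cluster, was at 41.4, 64.9, 47.1 and 80.5 CPM in CIS KO and 40.7, 23.7, 28.5 and 29 CPM in WT. It rose by 1.00 ± 0.26 on the log2 scale, and was called with the depth term (1.24) and at 24 h (1.42), but not without WT replicate 2 or 3 or CIS KO replicate 2 or 4.

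**Figure D5:**
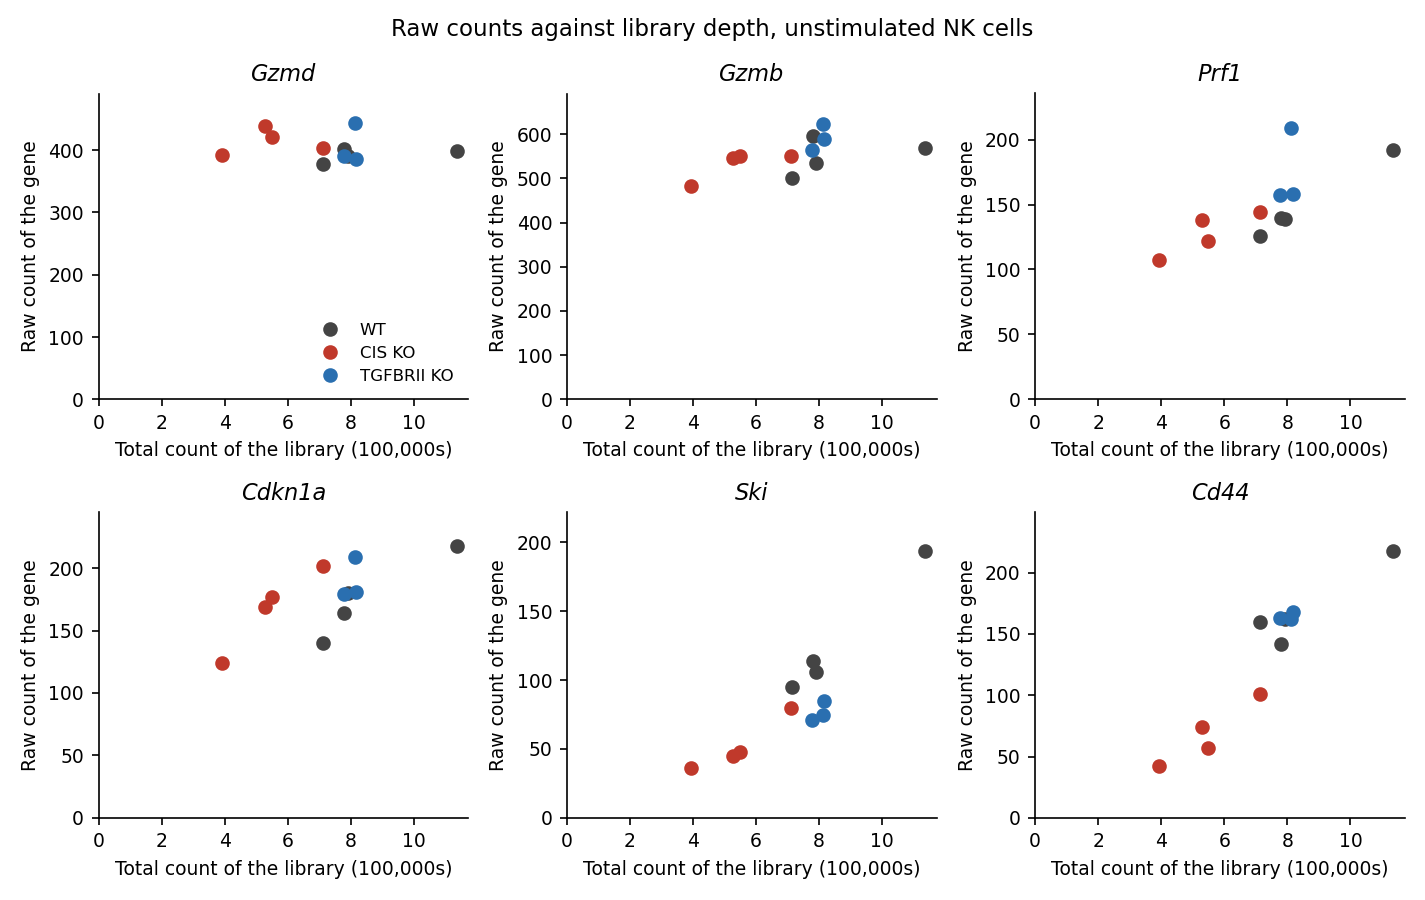
Raw count of 6 genes against the total count of each unstimulated library. Gzmd and Gzmb counts stay nearly level from the shallowest to the deepest library in all genotypes, while those of Cdkn1a, Ski and Cd44 rise with depth and CIS KO lies above (Cdkn1a) or below (Ski, Cd44) the WT trend.

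Of 24 activating receptors and adaptors, 1 rose and 3 fell, beside 3.01% of all autosomal genes called in each direction, with a median of -0.12. Klrb1f, a lectin-like receptor of the NKR-P1 family that binds Clr-g, was at 55.2, 59.4, 58.9 and 74.9 CPM in CIS KO and 127, 127, 170 and 144 CPM in WT. All CIS KO libraries lay below all WT and TGFBRII KO libraries (124 to 157 CPM), with a log2 difference of -1.18 ± 0.20 (adjusted p = 0.00114), -0.74 with the depth term and -0.71 ± 0.23 at 24 h, the last not called (adjusted p = 0.0798). Klrb1a, a paralog, was at -0.39 ± 0.11 and -0.36 at 24 h, called in both but not with the depth term. Syk, a kinase of receptor signalling, was at -0.60 ± 0.19, and Fcgr3, the Fc receptor CD16, rose by 0.48 ± 0.14, and neither was called with the depth term.

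Of 12 inhibitory and checkpoint receptors, 2 rose and 1 fell, beside 3.01% of all autosomal genes called in each direction, as for each list here. Klrg1, a receptor of mature NK cells, was at 237 to 271 against 182 to 203 CPM (log2 0.35 ± 0.09), and Havcr2, which encodes TIM-3, at 189 to 263 against 148 to 175 CPM (0.41 ± 0.13). Neither passed with the depth term (adjusted p = 0.183 and 0.151), though Havcr2 was called at 24 h (0.98 ± 0.16). Cd200r1 fell by 0.69 ± 0.17 on the log2 scale, and was at -0.55 with the depth term, not called. Of 11 Ly49 genes, 0 rose and 2 fell, Klra6 (-1.38 ± 0.33) and the pseudogene Klra13-ps (-0.52 ± 0.14). Klra13-ps was also called with the depth term and at 24 h (-0.82 ± 0.13). Ly49 genes are near-identical copies, so their counts are uncertain. Cd44, the hyaluronan receptor and the 1 gene called of 14 for homing and adhesion, was at 116, 106, 145 and 140 CPM in CIS KO and 180, 202, 183 and 221 CPM in WT (log2 -0.61 ± 0.13, adjusted p = 0.00977). It was -0.63 with the depth term, called, and 0.04 ± 0.12 at 24 h, and missed the threshold without CIS KO replicate 2 (adjusted p = 0.0619).

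Genes of maturation showed a mixed picture. Of 12 genes of circulating mature NK cells 3 rose, Klrg1, Irf8 and Ly6c2, and 0 fell, with a median of 0.16. Of all autosomal genes 3.01% were called in each direction, and of the most abundant class, which held 5 of the 12, 15.1%. Ly6c2, a surface antigen of mature NK cells, was at 376, 312, 361 and 280 CPM in CIS KO and 234, 210, 160 and 207 CPM in WT (log2 0.71 ± 0.14, adjusted p = 0.00533). Its difference was 0.40 ± 0.10 with the depth term and 0.54 ± 0.15 at 24 h, called in both, and its adjusted p without WT replicate 3 was 0.0512. Irf8, whose promoter is shown above, was at 445, 378, 473 and 333 CPM in CIS KO and 299, 285, 231 and 228 CPM in WT. Each CIS KO library lay above each WT library (log2 0.64 ± 0.14, adjusted p = 0.0115), but the difference was 0.50 ± 0.14 with the depth term and -0.05 ± 0.15 at 24 h, not called. Of 18 genes of immature and tissue-resident cells 1 rose and 3 fell, among them Emb, an adhesion protein (-0.59 ± 0.13), and 0 were called with the depth term.

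Transcription factors of NK and innate lymphoid identity showed 2 higher (Irf8 and Bhlhe40) and 3 lower of 25, with a median of -0.08. Over all autosomal genes 3.01% were called in each direction. Tox, needed for early NK development, was at 24.9, 57.5, 35.3 and 69.4 CPM in CIS KO and 92.2 to 109 CPM in WT, and at 95.2 to 132 CPM in TGFBRII KO. The CIS KO values were widely spread but all below WT (log2 -0.97 ± 0.22, adjusted p = 0.0135). The difference was -0.88 ± 0.25 with the depth term (adjusted p = 0.103) and -1.18 ± 0.22 at 24 h, called. Foxo1, which holds back NK maturation, fell by 0.45 ± 0.11 on the log2 scale. Zeb1, the third lower factor of the list, fell by 0.88 ± 0.24. Foxo1 and Zeb1 were both uncalled with the depth term and at 24 h (-0.13 and -0.29). Bhlhe40 was at 0.57 ± 0.16, at 0.42 with the depth term (adjusted p = 0.26, not called) and at 0.09 at 24 h. Bcl11b, a factor of T cells and innate lymphoid cells and the 1 called gene of 9 T cell markers tested, was at 27.6, 81.6, 64.8 and 93 CPM in CIS KO and 111 to 128 CPM in WT (-0.73 ± 0.19), and at 171 to 190 CPM in TGFBRII KO. Its difference was -0.65 with the depth term, not called (adjusted p = 0.156).

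Of 21 genes of the TGF-β pathway and its feedback, 0 rose and 4 fell, beside 3.01% of all autosomal genes called in each direction. Their median was -0.39, and it was -0.20 with the depth term and -0.09 at 24 h of TGFB1. The list does not hold every gene of the family. Acvrl1, the type I receptor described above, is not on it and was called higher (log2 1.58 ± 0.36, adjusted p = 0.0118). Acvrl1 was also called higher with the depth term and at both later times. Smad3, a receptor-activated SMAD, was at 30.4, 37.1, 13.7 and 30.5 CPM in CIS KO and 57.2, 59.9, 84.7 and 62.2 CPM in WT (log2 -1.25 ± 0.27, adjusted p = 0.00866). Every CIS KO library lay below every WT library, and the difference was -0.87 ± 0.28 with the depth term (adjusted p = 0.151) and -1.11 ± 0.30 at 24 h, called. Smad5 and Smad4, the SMAD of the BMP branch and the shared partner of all branches, were at -0.54 ± 0.13 and -0.39 ± 0.11, and neither was called with the depth term or at 24 h.

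Ski, a co-repressor of SMADs, had raw counts of 36, 48, 45 and 80 in CIS KO and 114, 106, 194 and 95 in WT, or 88.4 to 111 CPM against 131 to 163 CPM. The difference was -0.56 ± 0.12 (adjusted p = 0.0115) and -0.65 ± 0.12 with the depth term (adjusted p = 0.00503). It was lost without WT replicate 3 or CIS KO replicate 2 or 3 (adjusted p up to 0.0811), and was -0.18 ± 0.09 at 24 h, not called. TGFBRII KO cells, which lack the receptor, had 89.9 to 103 CPM of Ski, and their difference from the same WT libraries was -0.60 ± 0.13 (adjusted p = 0.0324). CIS KO and TGFBRII KO libraries differed in Ski by 0.05 on the log2 scale (adjusted p = 0.89).

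Of 19 interferon-stimulated genes tested, 0 rose and 5 fell, beside 3.01% of all autosomal genes called lower, and 2 were called lower with the depth term and 1 at 24 h. The median was -0.34, and it was -0.21 with the depth term and -0.25 at 24 h. Ifi203, a nucleic acid sensor family member, was at 122, 130, 141 and 126 CPM in CIS KO and 200, 189, 225 and 225 CPM in WT (log2 -0.69 ± 0.13, adjusted p = 0.00229). It stood apart in every library, with -0.58 with the depth term and -0.66 ± 0.12 at 24 h, called in both, and TGFBRII KO was at 164 to 227 CPM. Ifi27l2a, an interferon-induced mitochondrial protein, was at 91.1, 59.4, 62.8 and 61 CPM in CIS KO and 73.7, 96.1, 125 and 119 CPM in WT. These groups overlapped, since CIS KO replicate 1 lay above WT replicate 1 (log2 -0.65 ± 0.15, adjusted p = 0.0125). It was called with the depth term and at 4 h (-1.13) but not at 24 h (-0.43).

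Usp18, the protease that removes ISG15 and feeds back on the interferon receptor, was at 0, 1.86, 1.96 and 2.77 CPM in CIS KO and 3.81, 7.49, 18.4 and 11 CPM in WT. These are a few counts per library, and the log2 difference of -2.43 ± 0.66 was not called with the depth term (-1.92) or at 24 h (-1.15). Zbp1, a sensor of Z-form nucleic acid, was at -0.72 ± 0.19 and, like Stat2, was called neither with the depth term nor at 24 h. Interferon genes are few and shallow here, so counting error limits them.

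Lists of metabolic and biosynthetic genes are given beside 3.01% of all autosomal genes called in each direction. The most abundant class, with 15.1% of genes called at a median of 0.28, held 15 of the 23 oxidative phosphorylation genes. It held 1 to 4 genes of each other list. Of 16 glycolysis genes 4 rose and 0 fell (median 0.40), of 23 oxidative phosphorylation genes 3 and 0 (0.29), of 20 cholesterol synthesis genes 4 and 0 (0.19), of 21 ribosome biogenesis genes 3 and 0 (0.13), and of 19 amino acid supply and ATF4 genes 2 and 0 (0.18). With the depth term the medians were 0.14, 0.01, 0.11, 0.18 and 0.14, with 1 gene of the 5 lists called, and at 24 h 0.13, 0.09, 0.15, 0.04 and 0.31. Ldha, lactate dehydrogenase A, had raw counts of 258, 273, 272 and 286 in CIS KO and 279, 293, 312 and 285 in WT. The log2 difference was 0.63 ± 0.19 (adjusted p = 0.0462), and 0.12 ± 0.09 with the depth term.

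Hmgcs1, the HMG-CoA synthase of cholesterol synthesis, was the gene called with the depth term. It was at 942, 655, 732 and 566 CPM in CIS KO and 473, 504, 402 and 477 CPM in WT (log2 0.63 ± 0.12, adjusted p = 0.00455). The groups did not overlap, and the difference was 0.38 ± 0.09 with the depth term (adjusted p = 0.0433), but 0.07 ± 0.13 at 24 h. Msmo1 and Idi1 of the same pathway and its regulator Srebf2 were at 0.57 ± 0.13, 0.84 ± 0.25 and 0.65 ± 0.20, and were called neither with the depth term nor at 24 h. Npm1, a nucleolar protein of ribosome assembly, was at 0.54 ± 0.13, and at 0.23 with the depth term, not called.

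The cell cycle differed little at baseline. Of 27 genes of S phase and replication 0 were called (median -0.05). Of 26 mitosis genes 0 rose and 2 fell (median -0.25, and -0.09 with the depth term), beside 3.01% of all autosomal genes called lower. The 2 were Tpx2, a spindle assembly factor (130, 145, 173 and 187 CPM in CIS KO; 220, 255, 249 and 200 CPM in WT), and Prc1, a protein of the spindle midzone, at -0.52 ± 0.14 and -0.47 ± 0.14. Neither was called with the depth term. At 24 h of TGFB1 the direction was the other way, with Tpx2 at 95.1 to 139 CPM in CIS KO and 36.7 to 57.7 CPM in WT (log2 1.35 ± 0.19). The difference between the times was itself called for 19 of the 26 mitosis genes and 9 of the 27 replication genes, all higher at 24 h, beside 132 of all autosomal genes (1.35%), of which 119 were higher (1.22%) and 13 lower (0.133%). For Tpx2 it was 1.88 ± 0.24 and for Prc1 1.47 ± 0.23.

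The remaining lists are given by their counts, beside 3.01% of all autosomal genes called higher. Immediate early genes showed 3 higher of 18 (median 0.30), hypoxia genes 2 of 17 (0.22), cytokines and chemokines 1 of 14 (0.09, Osm), the BCL2 family 1 of 15 (0.18) and the TNF receptor superfamily 1 of 9 (-0.02, Tnfrsf9), with 0 lower in each. None of these calls was kept with the depth term. The most abundant class, with 15.1% of genes called, held 6 of the 18 immediate early genes and 5 of the 14 cytokine and chemokine genes. It held at most 2 genes of each other list here. G1 cyclins and CDK inhibitors held Cdkn1a and Ccnd3, 1 in each direction of 17.

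Of the 12 most changed genes in each direction with non-overlapping libraries, those not yet described were mostly of low abundance. Higher in CIS KO were Septin8 (1.37 ± 0.37), B4galnt2, which makes the Sda blood group antigen (1.36 ± 0.36), the kinase gene Pkn3 (1.36 ± 0.37), the cystatin A family gene Csta2 (1.32 ± 0.39), the small nucleolar RNA Snora81 (1.15 ± 0.31), the phosphatase subunit gene Ppp2r2c (0.98 ± 0.30) and Eaf1 of the elongation machinery (0.90 ± 0.23). B4galnt2 was at 41.4, 27.8, 43.2 and 26.4 CPM in CIS KO and 7.62 to 16.8 CPM in WT, and was called with the depth term (1.71) and at 24 h (1.27). Pkn3 was called with the depth term too, and Septin8 and Csta2 at 24 h. Snora81 was at -0.62 at 24 h, and the 2 differences differed by -1.77 ± 0.43 (adjusted p = 0.0228).

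Lower in CIS KO were the myosin light chain gene Myl10 (-1.97 ± 0.46), Gas8 of motile cilia (-1.86 ± 0.54), Zfp446 (-1.78 ± 0.49), the polarity gene Pard6g (-1.75 ± 0.47), Fam217b (-1.72 ± 0.43), Rps6kl1 (-1.68 ± 0.46), Dand5 (-1.68 ± 0.52) and the tartrate-resistant phosphatase gene Acp5 (-1.66 ± 0.41). The highest WT library among them had 29.3 CPM, and none was called with the depth term. Myl10, at 2.76 to 9.71 CPM in CIS KO and 17.5 to 27.6 CPM in WT, was called at 24 h (-2.27 ± 0.55), while Gas8 and Zfp446 stood at 0.23 and 0.34 there.

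Other genes called both with and without the depth term, chosen here after their values were seen, had unlike fates at 24 h. Mgmt, a DNA repair protein that removes alkyl groups from guanine, was at 16.6, 29.7, 29.5 and 36.1 CPM in CIS KO and 8.9, 11.2, 10.1 and 16.6 CPM in WT. The lowest CIS KO library met the highest WT library, and the log2 difference of 1.33 ± 0.31 was 1.37 with the depth term and 1.79 ± 0.32 at 24 h, called. Mgst2, a membrane glutathione transferase, was at -0.90 ± 0.21, at -0.96 with the depth term and at -1.02 ± 0.21 at 24 h, called. The chaperone BiP (Hspa5), calcitonin (Calca) and protein kinase C beta (Prkcb) were at 0.60 ± 0.13, 0.96 ± 0.21 and -0.54 ± 0.11, and at 0.01, 0.28 and -0.23 at 24 h, not called.

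Libraries taken after TGFB1 gave a second reading of the genotype difference in other libraries, whose animals of origin are not stated. They carried the same difference in sex-linked transcripts, so this reading does not separate genotype from the sex of the cells either. At 24 h 219 genes were higher (2.25%) and 101 lower (1.04%) in CIS KO, 3.28% together, and at 4 h, with 2 WT libraries, 8 (0.082%) and 13 (0.133%), 0.215% together. Of the 294 genes higher at baseline, 236 had the same direction at 24 h and 24 were called there, with a median log2 of 0.56 at baseline and 0.13 at 24 h. Of the 294 lower, 229 had the same direction, 39 were called lower and 4 called higher, with medians of -0.72 and -0.20. The 17 higher genes called with and without the depth term all had the same direction at 24 h and 10 were called, and of the 38 lower ones 36 had it and 17 were called. No gene was called for a change of the difference between baseline and 4 h by edgeR or by DESeq2, with 819 genes at an unadjusted p under 0.05.

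Against the other knockout, whose libraries lay within 777648 to 816633 counts, 187 genes were higher (1.92%) and 241 lower (2.47%) in CIS KO, 4.39% together. The TGFBRII KO libraries held Xist at 22.9 to 77.8 CPM and Y-linked sums of 187 to 388 CPM, between CIS KO and WT. Sex-linked transcripts thus differed here too. This comparison shares the CIS KO libraries with the one against WT, so it is given beside it and not as support. TGFBRII KO differed from WT in 12 genes (0.123%), 4 higher (0.041%) and 8 lower (0.082%), among them Ski and Limd1. Cd55 stood at 214 to 294 CPM, Ccng1 at 400 to 429 CPM and Cdkn1a at 220 to 252 CPM in TGFBRII KO, and CIS KO exceeded TGFBRII KO in Cdkn1a by 0.45 on the log2 scale (adjusted p = 0.027). For Cd55 and Ccng1 the excess was 0.50 and 0.18 and not called (adjusted p = 0.0508 and 0.251). Klrb1f, Sla, Stk10, Ust and Nr3c1 were lower than in TGFBRII KO by 1.16, 1.15, 0.92, 1.25 and 0.83 on the log2 scale, all called.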

How the data were processed

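RNA was taken from sorted mouse NK cells and made into strand-marking libraries, per the labels' protocols. The deposited table holds whole-number read counts per gene for 31 libraries. The authors' tools, per the submitters' processing notes, were FastQC, Trimmomatic, Subread, Picard, SAMtools and featureCounts with build mm10. Their versions, the strand setting and any removal of duplicates are not given there, so overlapping and antisense genes are uncertain. Of 27179 genes, 25275 were named from RefSeq GRCm38.p6 and 18 from GENCODE M21, and 1886 with no symbol held 0.956% of counts.

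All 31 libraries in 9 groups were fitted together with edgeR 4.0.16 in R 4.3.3 (TMM scaling, filterByExpr, quasi-likelihood F-test, Benjamini-Hochberg adjustment over 10275 genes, threshold 0.05), and the 9752 autosomal genes are reported. Standard errors are the log2 difference divided by the square root of F. The depth term is the log2 total count. CPM values use the totals of the genes tested, multiplied by the TMM factors. Totals of 392266 to 1135104 counts make genes of a few CPM imprecise. The procedure was tested on simulated counts. Alternatives used DESeq2 1.42.0, other scalings and filters, thinning, covariates and libraries left out.

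Named genes were Cish and its family, the 12 most changed in each direction with non-overlapping libraries and a mean of at least 10 CPM, up to 4 per list by p, and the 3 tested genes nearest to Cish on each side; others are said to be chosen later. Members and lists were chosen with earlier results of these data known.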

Additional observations from a re-analysis of the deposited data

Results flagged for a closer look

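Among 194 groups of 4 unstimulated libraries of described genes, 15 held 1 library far from the other 3 by Dixon's test, where chance gives about 1 in 20. In WT replicate 3, the deepest library, Rps6kl1 was high at 20.1 CPM (others 12.7 to 13.8) and Stat4 at 133 CPM (119 to 121), while Gzme was low at 297 CPM (408 to 428) and Npm1 at 351 CPM (436 to 448). In WT replicate 1, Idi1 was high at 25.4 CPM (16.6 to 17.5) and Calca at 57.2 CPM (28.5 to 31.2), and in WT replicate 4 Dand5 at 19.3 CPM (9.99 to 11.4). In CIS KO replicate 1, the shallowest of the 8 libraries, Osm was high at 96.7 CPM (68.6 to 69.4) and Ifi27l2a at 91.1 CPM (59.4 to 62.8). In CIS KO replicate 2, Cd200r1 was high at 76.1 CPM (55 to 58.3). In CIS KO replicate 3, Snora81 was high at 37.3 CPM (20.4 to 22.1), Cd55 at 424 CPM (311 to 323) and 6430571L13Rik at 1.96 CPM, which was 1 count, where the others had 0. In CIS KO replicate 4, Myl10 was high at 9.71 CPM (2.76 to 3.93) and Zfp446 low at 1.39 CPM (5.52 to 5.89). Myl10 had 7 counts there against 1 to 2 in the others, and Zfp446 had 1 against 2 to 3. For genes of so few counts the rate of 1 in 20 does not hold.

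For 3 described genes the difference between CIS KO and WT itself changed between unstimulated cells and 24 h of TGFB1, by edgeR's test of that change. It was 1.88 for Tpx2, 1.47 for Prc1 and -1.77 for Snora81 on the log2 scale.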

How the results depend on the processing

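Counts of called genes moved with the processing, and the cause was not tested. Beside 294 genes higher and 294 lower in CIS KO, no low-count filter gave 625 and 491 (of 16012 tested), the 8 libraries alone 682 and 362, the depth covariate 19 and 45, thinning to the shallowest library 166 and 86, the Y-linked covariate 0 and 2, CIS KO replicates 2 and 3 counted as 1 library 40 and 45, and near-equal depth 0 and 2, the last pair of alternatives chosen after seeing the data. Library size alone gave 503 lower, moving the median of all genes from -0.04 to -0.11, and DESeq2 gave 60 lower, or 150 higher and 104 lower without its independent filtering, an alternative also added after seeing the data. Leaving out each library gave 15 to 591 higher and 32 to 453 lower. Without WT replicate 3, 46 of the 588 calls remained. RLE, upper-quartile factors, a stricter filter and adjustment over autosomal genes kept both counts within 1.5 times.

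The change of the genotype difference at 24 h was called for 132 genes, and for 317 with no low-count filter, 54 with the depth covariate, 30 after thinning and 98 to 200 with a library left out. At 4 h it was 0, and 60 with no low-count filter. CIS KO against TGFBRII KO gave 428, and 202 with DESeq2, 706 with no filter, 270 with the depth covariate, 149 after thinning and 157 to 530 with a library left out.

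Same-numbered libraries of the 2 genotypes did not deviate together (correlations of -0.26 to 0.039), so numbers do not pair them. With a replicate block, 209 genes were higher and 229 lower, 430 of them shared with the fit without it.

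Of the 89 named genes that were called, 53 lost the call with the depth covariate, 87 with the Y-linked covariate and 64 without WT replicate 3. DESeq2 kept 40, lost 1 and gave 48 no adjusted p, and without its independent filtering it kept 58 and lost 31. Reversals were in uncalled genes. Socs4 was 0.288 and Socs7 -0.0399 at near-equal depth. Socs5 was -0.0258 with library size alone, -0.26 with the Y-linked covariate, and -0.0315 to 0.137 with a library left out. Rbm15b was -0.0167 to 0.52 with a library left out. An alternative restricted to overlapping depths could not be run, since the totals do not overlap. Low totals limit genes of a few CPM.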
